A study of Homo sapiens with 27 samples.

Results

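Amino acid starvation and direct mTOR inhibition were set against each other in unedited (WT) 501mel cells, an established human melanoma line with high MITF. The comparison took the libraries of WT cells kept for 12 h in HBSS against those of WT cells kept for 12 h in 250 nM Torin, which are 4 of the 27 libraries of the series (HBSS replicates 1 and 2, Torin replicates 2 and 3). HBSS, a buffered saline, held glucose and no amino acids per the study's text, and the labels do not say whether serum was present. Torin inhibits the mTOR kinase. The WT libraries without treatment (n = 3), whose labels carry neither a time nor a vehicle, served as the reference for both arms. The other libraries, used in the fit, came from TFE3 KO, TFEB KO and double knockout (DKO) cells kept for 12 h as controls or in 250 nM Torin (n = 3 each). Each knockout genotype is a Cas9-edited clone. The labels do not say that replicates are separate cultures, so p-values measure the spread between these libraries, which may be technical.

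mTORC1, the kinase complex at the lysosome that couples growth to nutrients, is switched off when amino acids are scarce because the Rag GTPases no longer hold it there. Torin acts on the kinase itself, and so also on mTORC2, while amino acids stay present. Starved cells carry uncharged tRNAs, which activate the kinase GCN2. GCN2 phosphorylates the initiation factor eIF2, and translation of the transcription factor ATF4 then rises. ATF4 targets include amino acid synthesis enzymes, transporters and tRNA synthetases, and mTORC1 activity is itself known to promote ATF4 translation. The comparison asked which transcripts part these ways of lowering mTORC1 activity.

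A single column of values is deposited under both the label WT HBSS replicate 3 and the label WT Torin replicate 1, identical over all 13523 genes of the table. The labels do not settle which group it belongs to, so it was left out of both groups, which gave n = 2 in each. Over the 2165 genes called without it, its values were nearer to the HBSS mean in 2040 (94.2%) and to the Torin mean in 125, and no group was given to it from these values. The 4 libraries held 4730344 and 5223405 reads in HBSS and 4204431 and 4147050 reads in Torin. HBSS libraries had 12895 and 12901 genes with a read, and Torin libraries 13188 and 13181. Values are normalised read counts scaled per library by the authors, and 3 reads, the upper limit behind a count of 0, are worth 0.628 to 0.711 in these libraries. These limits cover counting error only. All 8 melanocyte identity markers fixed for the check were among the genes tested, while 1 of 11 markers of epithelial, fibroblast, endothelial and blood cells (COL1A1, 0.837 to 1.84 in the 4 libraries) was. Because values are relative within a library, and the samples are bulk cultures, fewer cells of a kind and less RNA per cell cannot be told apart.

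Of 13052 genes tested, 2165 (16.6%) differed between HBSS and Torin at an adjusted p under 0.05 (limma, Benjamini-Hochberg) and a log2 fold change of 1 or more in either direction. In HBSS, 907 genes (6.95%) were higher and 1258 (9.64%) lower. The HBSS and Torin libraries did not overlap in 2164 of these called genes, against 74.0% of all genes tested, so a lack of overlap by itself says little here. The called genes differed in level, with a median of 28.8 in the higher group, 5.71 in the lower group and 20.4 over all genes tested. All HBSS libraries were at or under 3 reads for 219 of the lower genes, and all Torin libraries for 31 of the higher genes. The plot of fold change against level shows this spread, with the lower genes reaching further into the low levels.

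Counting the column held under both labels as WT HBSS replicate 3 gave 2121 called genes, and counting it as WT Torin replicate 1 gave 664. Under the latter, 12 of 15 called members of the amino acid response list, 6 of 8 of the serine and one-carbon list and 7 of 9 of the tRNA synthetases were still counted as higher, but 4 of 12 in sterol synthesis, 2 of 7 in ER folding, 2 of 12 in mitosis and 0 of 4 in the lysosomal list. The counts below therefore rest on the column being left out of the Torin group.

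Gene lists were described by their called members and their median log2 fold change, beside -0.01 for all genes tested. Each count of called members is to be read against the 6.95% and 9.64% of all genes called higher and lower. Counts at an adjusted p under 0.05 without the fold limit (limma) stand against 3405 higher and 3011 lower of all 13052 genes tested. Counts at an unadjusted p under 0.05 (limma) stand against 7123 of the 13052, both directions together. Where 0 members of a list are given as lower, edgeR and DESeq2 on recovered reads also called 0, and the members lower at an unadjusted p under 0.05 numbered 0 to 3. The plot of lists orders them, from the amino acid response with a median of 1.77 to the MAPK output genes with a median of -0.39. These lists were written with earlier results of these data known, so their counts describe the contrast.

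**Figure D1:**
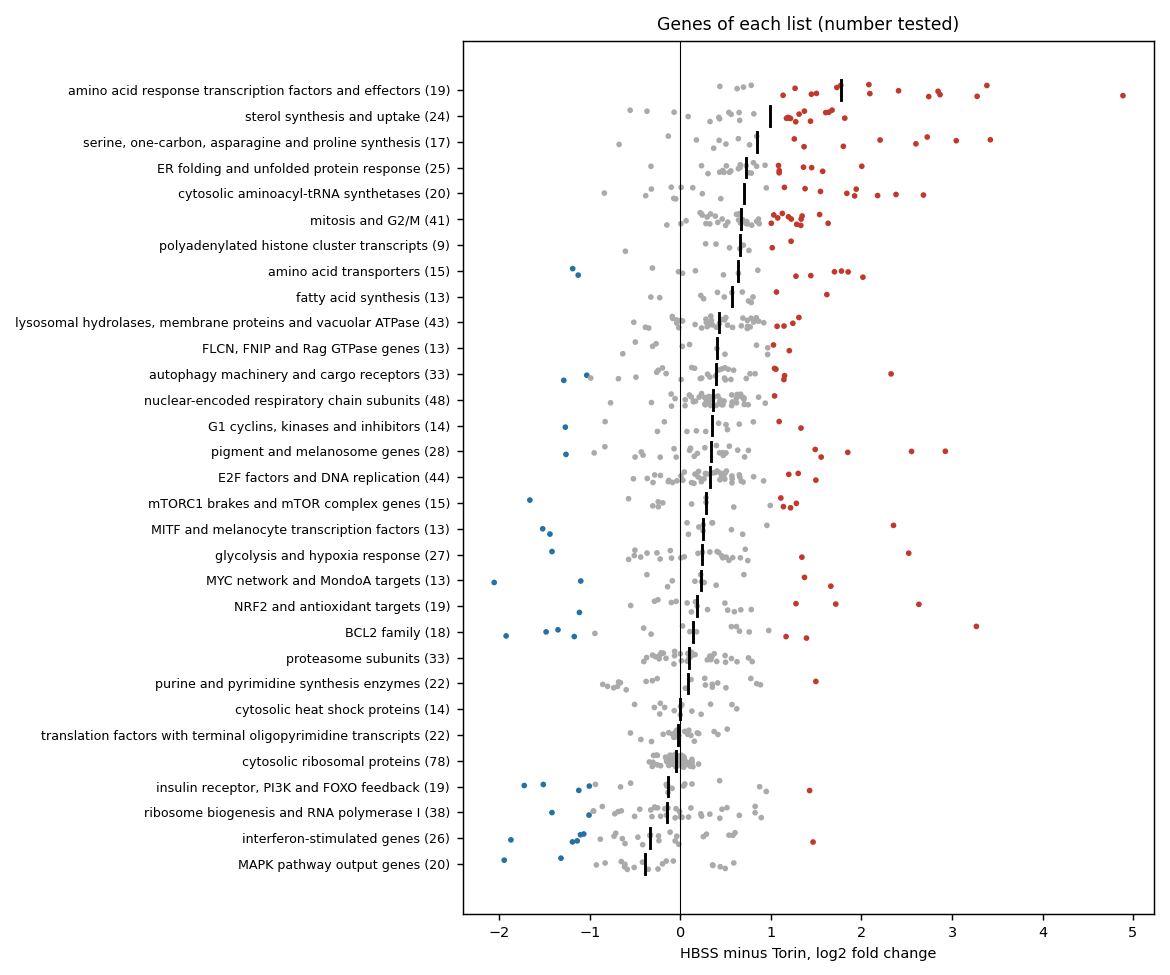
Each row is a gene list with the number of its genes tested, each point a gene, and the x axis the log2 fold change of HBSS over Torin. Red and blue points are genes called higher and lower in HBSS, grey points were not called, and the black bar is the list's median. Points are shifted vertically at random within a row. Amino acid, sterol and ER lists lie to the right, and ribosomal proteins sit close to 0 with 0 of 78 called.

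MITF, TFEB and TFE3 are related factors that bind E-box sequences, and mTORC1 is known to hold TFEB and TFE3 in the cytoplasm by phosphorylation. TFEB (chromosome 6, 41683978 to 41736223) had normalised read counts of 30.4 and 28 in HBSS and of 5.63 and 4.27 in Torin, against 3.45, 3.96 and 2.34 untreated. Its HBSS libraries lay above the Torin and untreated WT libraries, with a log2 fold change over Torin of 2.35 ± 0.39 (SE, adjusted p 2.48e-06, limma). MITF (chromosome 3, 69739464 to 69968332) was at 1392 and 1454 in HBSS and at 735 and 732 in Torin, against 719, 778 and 788 untreated. The log2 difference of 0.95 ± 0.07 (SE, adjusted p 8.1e-15) passed the test and fell just under the fold limit. TFE3 (chromosome X, 49028726 to 49043357) was at 25.1 and 23.7 in HBSS and at 20.4 and 17.5 in Torin, and its log2 difference of 0.35 (95% interval -0.08 to 0.78) did not pass the test (adjusted p 0.176).

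The gene with the highest fold was SESN2 (chromosome 1, 28259518 to 28282491), a sestrin that binds leucine and restrains mTORC1 through GATOR2. It was at 201 and 219 in HBSS and at 6.09 and 6.16 in Torin, with 19.9, 15 and 19.5 untreated. The groups were 34.3-fold apart in their means, and the log2 fold change was 4.89 ± 0.22 (SE, adjusted p 2.52e-23, limma). Both arms left the untreated level, in opposite directions, with 3.47 for HBSS and -1.42 for Torin on the log2 scale. The HBSS and Torin contrasts against untreated cells share their untreated libraries and are given side by side as values.

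Of the 12 highest genes with a mean of at least 5, 4 belong to amino acid metabolism or its signalling (SESN2, ASNS, CHAC1 and MTHFD2), and CEBPG encodes a partner of ATF4. PMAIP1, the BH3-only protein NOXA, was at 28.3 and 27 in HBSS and at 0.938 and 3.56 in Torin, against 13.5, 14.3 and 13.9 untreated. Its log2 fold change was 3.27 ± 0.29 (SE), made up of -2.32 for Torin, which passed the test, and 0.95 for HBSS, under the fold limit. PPARGC1A, the PGC1α coactivator of mitochondrial genes and a MITF target in melanocytes, was at 199 and 208 in HBSS and at 22.3 and 30.1 in Torin, against 25.1 to 29.9 untreated. AKNA, an AT-hook protein, was at 65.6 and 54.4 against 5.63 and 5.21, and CIART, a repressor in the circadian clock, was at 9.9 and 11.7 against 0.469 and 0.474. These 3 genes were called against untreated cells in HBSS and not in Torin. The Torin libraries of CIART were at or under 3 reads, which makes HBSS at least 15.3-fold higher against that floor taken per library. LURAP1L-AS1, an antisense transcript, was likewise at the floor in Torin (0.703 and 0.237) and at least 19.9-fold higher in HBSS (15.4 and 12.8). Whether the counting used strand is not given in the sources used here, so reads of its sense partner or of other overlapping genes cannot be told apart. The span of LURAP1L-AS1 (chromosome 9, 12699999 to 12814389) overlaps that of the pigment gene TYRP1 (12693385 to 12710285). NAT8 (log2 fold change 3.0) and PRDM7 (2.99) complete the group and have close paralogs, NAT8B and PRDM9, so their counts are uncertain.

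**Figure D2:**
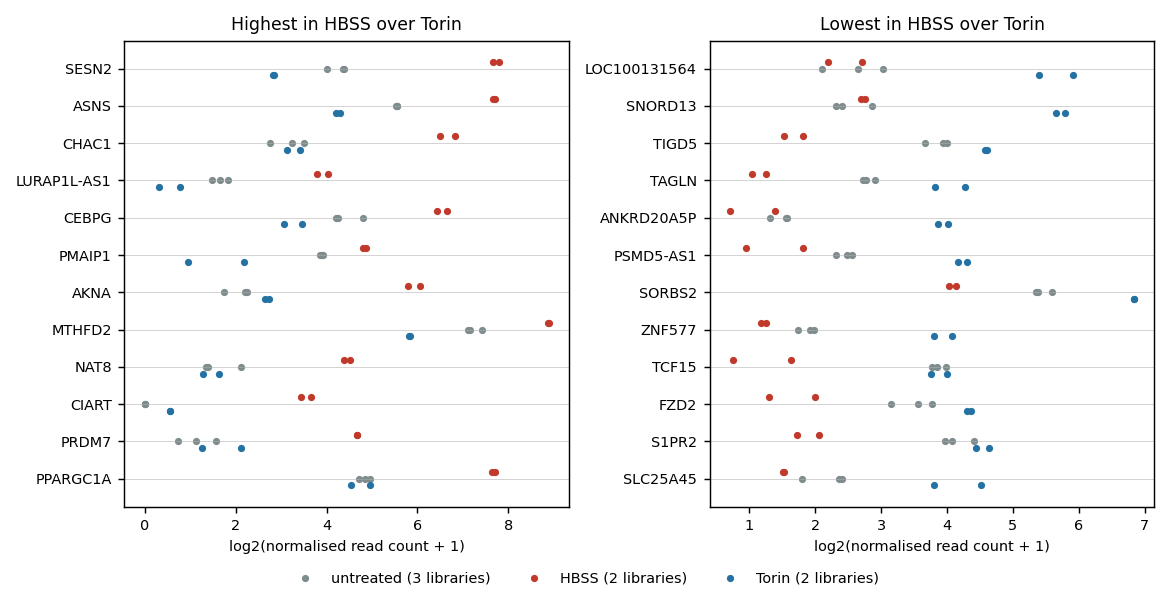
Normalised read counts, as log2(value + 1) on the x axis, of the 12 genes with the highest (left) and the 12 with the lowest (right) fold change of HBSS over Torin. Each point is a library, in grey for untreated WT (n = 3), red for HBSS (n = 2) and blue for Torin (n = 2). The 24 genes were chosen among called genes without overlap between HBSS and Torin, so their separation here is fixed by that choice. For SESN2 the untreated libraries lie between the arms, and for SNORD13 and LOC100131564 they lie with HBSS.

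The amino acid response list holds ATF4 and the factors and effectors downstream of it. Of 19 members tested, 15 were called higher in HBSS and 0 lower, with a median log2 fold change of 1.77, and all 19 had an adjusted p under 0.05 in that direction. ATF4 itself was at 1412 and 1474 in HBSS and at 522 and 495 in Torin, against 400, 381 and 400 untreated. This is a log2 fold change of 1.5 ± 0.08 (SE, adjusted p 4.61e-21), with 1.87 for HBSS and 0.37 for Torin against untreated cells. DDIT3 (CHOP), a pro-apoptotic factor of the same response, was at 125 and 120 in HBSS and 36.3 and 36.3 in Torin, close to the 34.5 to 36.4 of untreated cells. TRIB3, a pseudokinase that feeds back on ATF4 and AKT, was at 410 and 370 in HBSS and 58.1 and 47.4 in Torin, so that the log2 fold change was 2.87 ± 0.12 (SE). CHAC1, which degrades glutathione, was at 112 and 89.6 in HBSS and 7.73 and 9.72 in Torin, with untreated libraries (5.74 to 10.3) overlapping Torin. Median changes of the list against untreated cells were 1.80 in HBSS and -0.29 in Torin.

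The serine, one-carbon, asparagine and proline list had 8 of 17 members called higher and 0 lower, with a median of 0.84. ASNS (chromosome 7, 97851677 to 97928441), asparagine synthetase, was at 202 and 207 in HBSS, 17.6 and 18.7 in Torin, and 45.8, 45.1 and 46.1 untreated. MTHFD2, the mitochondrial folate enzyme, was at 464 and 474 in HBSS, 56.3 and 55.5 in Torin, and 170, 137 and 142 untreated. For both genes the untreated level lay between the arms, and both arms were called against it, with 2.14 and -1.29 for ASNS and 1.65 and -1.40 for MTHFD2 on the log2 scale. GOT1, the cytosolic aspartate aminotransferase, was at 304 and 313 against 46.2 and 45.3, PSPH, the last enzyme of serine synthesis, at 86.1 and 98.8 against 15 and 13.7, and PHGDH, the first, at 666 and 665 against 188 and 193. In these enzymes HBSS was called against untreated cells (2.01, 1.81 and 1.24) and Torin was not (-0.72, -0.79 and -0.56). Their falls in Torin passed the test (adjusted p of at most 4.29e-05, limma) and missed only the fold limit. PYCR1, of proline synthesis, had the reverse make-up, with 0.21 for HBSS and -1.05 for Torin. PSAT1, the middle enzyme of serine synthesis, was at 14 and 16.5 in HBSS and 5.39 and 5.21 in Torin, both under the untreated 18.2 to 28.8. Its call (1.37, adjusted p 0.000667) was lost with a pseudocount of 0.1 (1.51, adjusted p 0.14), and in the Torin libraries of the knockout clones PSAT1 was at 0 to 2.04.

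Cytosolic tRNA synthetases, which charge tRNAs, had 9 of 20 members called higher and 0 lower, with a median of 0.70. GARS (glycyl) was at 765 and 733 in HBSS, 111 and 120 in Torin, and 217, 235 and 246 untreated, a log2 fold change of 2.68 ± 0.10 (SE, adjusted p 6.04e-26). AARS (2.38), YARS (2.18), MARS (1.94), SARS (1.92), CARS (1.84), TARS (1.55), WARS (1.38) and NARS (1.15) were the other members called. At the other end, 3 members had an adjusted p under 0.05 in the lower direction (limma), as did 3011 of all 13052 genes tested. The list was not uniform.

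Amino acid transporters had 6 of 15 members called higher and 2 lower, with a median of 0.64. SLC38A2 (SNAT2), which takes up neutral amino acids and is known to be induced by starvation, was at 320 and 334 in HBSS and 77.6 and 82.7 in Torin, and the untreated libraries at 77.6 to 106 overlapped Torin. SLC3A2, the shared heavy chain of several exchangers, was at 956 and 942 against 282 and 270 (log2 fold change 1.78 ± 0.09, SE), and SLC7A1, the cationic carrier, at 408 and 412 against 125 and 126 (1.70 ± 0.10, SE). SLC7A11, the cystine carrier, was called at 1.28, and SLC7A5, the light chain of the leucine exchanger, had 0.85 (adjusted p 5.66e-09), under the fold limit. The members lower in HBSS were SLC43A1 (20.3 and 16.3 against 39.8 and 42.2) and SLC38A9, the lysosomal arginine sensor (0.46 and 1.67 against 3.05 and 4.03). SLC43A1 fell under the fold limit without HBSS replicate 2 (-0.98), and SLC38A9 lost its call without HBSS replicate 1 (-0.75) and without Torin replicate 3 (-1.03).

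The promoters of some of these genes hold the composite site through which ATF4 and a C/EBP partner are known to act, and they are shown here because this group had the largest median difference. RefSeq promoters on GRCh38.p14, from 250 bases before to 50 after the start, were found for 10301 of the 13052 genes tested and searched on both strands for TGATGNAAN. The letters occurred in 1.67% of the promoters of all genes tested and in 3.67% of the 27305 promoters of the whole table. They were in 27 of 723 promoters (3.73%) of genes called higher and 11 of 925 (1.19%) of genes called lower. By list they were in 5 of 12 tRNA synthetases, 3 of 10 serine and one-carbon genes, 3 of 13 transporters and 2 of 17 amino acid response genes. A match is a description of letters and not a measured binding site. In the windows below, written 5′ to 3′ on the gene's strand, capitals mark the match. ASNS (chr7:97872448-97872496, minus strand, match from position -68) and one of the LURAP1L-AS1 windows (chr9:12814400-12814448, minus strand, -39) read TGATG directly, as does ATF3 (chr1:212565196-212565244, plus strand, -191). CHAC1 (chr15:40953241-40953289, plus strand, -210), GOT1 (chr10:99430795-99430843, minus strand, -199), AARS (chr16:70289666-70289714, minus strand, -188) and HERPUD1 (chr16:56931945-56931993, plus strand, -177) hold its reverse complement, and ZNF577 (chr19:51888004-51888052, minus strand, -81), among the lowest genes in HBSS, holds it as well.
ASNS: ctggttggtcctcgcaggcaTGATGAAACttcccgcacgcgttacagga
LURAP1L-AS1: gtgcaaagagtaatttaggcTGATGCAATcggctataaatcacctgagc
ATF3: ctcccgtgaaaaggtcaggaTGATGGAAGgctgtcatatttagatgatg
CHAC1: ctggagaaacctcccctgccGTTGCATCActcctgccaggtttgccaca
GOT1: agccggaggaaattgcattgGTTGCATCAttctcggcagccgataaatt
AARS: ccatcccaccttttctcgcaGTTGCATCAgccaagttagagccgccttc
HERPUD1: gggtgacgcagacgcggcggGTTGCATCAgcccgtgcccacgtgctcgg
ZNF577: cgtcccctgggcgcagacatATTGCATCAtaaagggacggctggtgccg
CHAC1, GOT1, AARS and HERPUD1 share the same 9 letters. Matches occurred in genes of both directions. SESN2 and DDIT3 had no match in this window.

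The brakes on mTORC1 and the mTOR complex genes had 4 of 15 members called higher and 1 lower. SESN3 was at 42.6 and 36.4 in HBSS and 16.9 and 14.5 in Torin (log2 fold change 1.28 ± 0.18, SE), and TBC1D7, a subunit of the TSC complex, at 339 and 343 against 151 and 164 (1.11 ± 0.15, SE). SESN1 (1.22) and RHEB, the GTPase that activates mTORC1 (1.14), were the other members called. SESN1 came just under the limit without Torin replicate 3 (1.0), and RHEB fell under it without HBSS replicate 2 (0.96) or Torin replicate 3 (0.94). DEPTOR, an inhibitor within the mTOR complexes, was at 0.92 and 4.6 in HBSS and 7.73 and 11.4 in Torin, against 0.39 to 0.822 untreated. Its call of -1.66 was lost without HBSS replicate 1 (-0.89, adjusted p 0.091). MTOR differed by 0.12 (95% interval -0.19 to 0.43, adjusted p 0.532).

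FLCN with FNIP1 or FNIP2 is the activator that lets RRAGC and RRAGD present TFEB and TFE3 to mTORC1, and these genes are known targets of MITF and TFE factors. In this list 2 of 13 were called higher and 0 lower. FNIP2 was at 214 and 226 in HBSS and at 91.6 and 98.6 in Torin, against 68.7 to 74.6 untreated (log2 fold change 1.20 ± 0.12, SE, adjusted p 1.14e-11). FLCN (53.4 and 56.5 against 27.2 and 28.2), RRAGC (321 and 330 against 176 and 187) and RRAGD (308 and 286 against 159 and 144) had log2 fold changes of 0.96, 0.84 and 0.96 with adjusted p of at most 9.99e-05, under the fold limit. FNIP1 was called at 1.03, and fell under the limit without HBSS replicate 1 (0.94) or Torin replicate 2 (0.92) and came just under it with median-of-ratios scaling (1.0). FLCN was called without HBSS replicate 1 (1.0) and RRAGD without HBSS replicate 2 (1.02) or Torin replicate 2 (1.03).

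**Figure D3:**
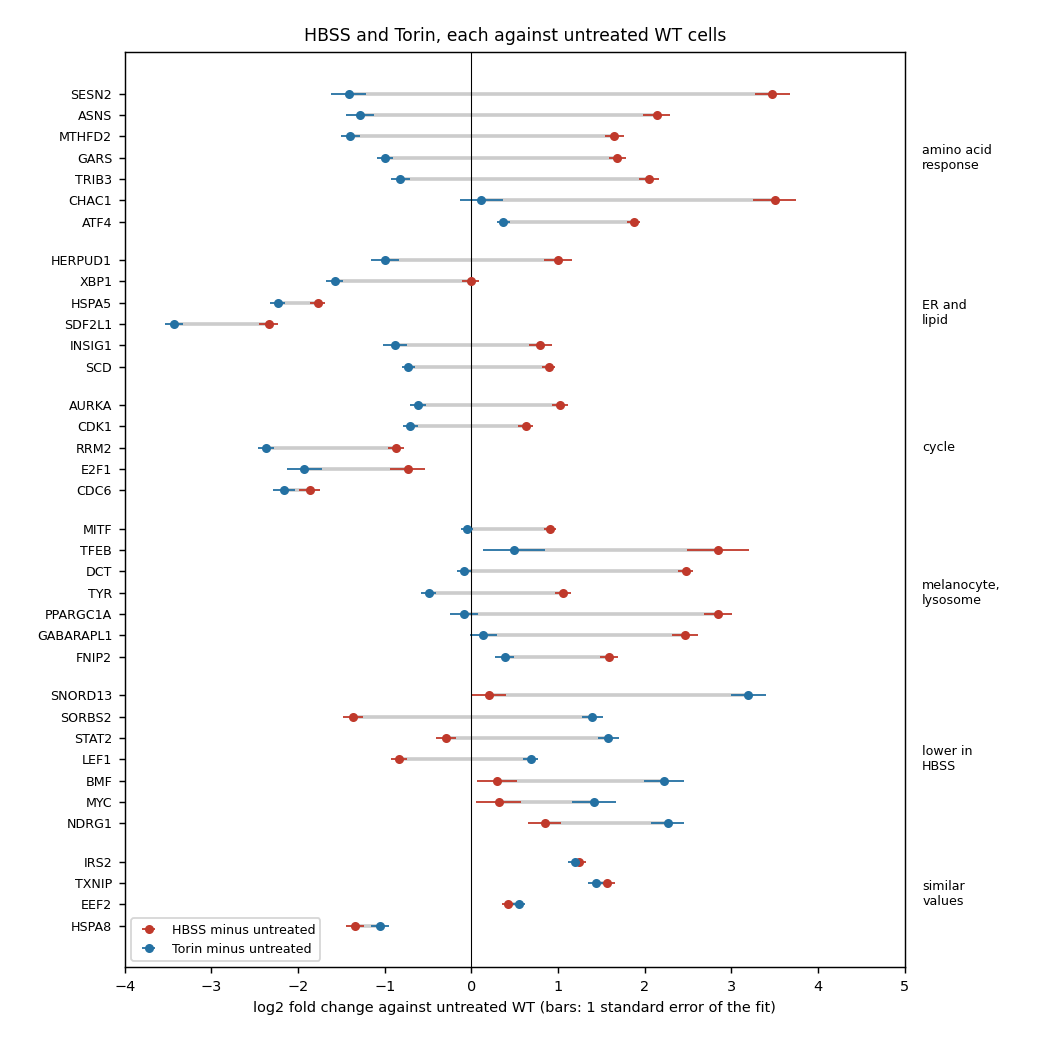
Log2 fold changes against untreated WT cells for HBSS (red) and Torin (blue), with bars of 1 standard error of the fit. Genes were chosen from those named in the text and are grouped by role. The grey line joins the arms. SESN2, ASNS and MTHFD2 lie on opposite sides of 0, SDF2L1 and HSPA5 lie left of 0 in both arms, and IRS2 and TXNIP lie right of 0 in both. The arms share their untreated libraries.

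Genes of ER folding and the unfolded protein response had 7 of 25 members called higher in HBSS than in Torin and 0 lower, with a median of 0.73, and 21 had an adjusted p under 0.05 in that direction. Both arms lay below untreated cells by the list median, with -0.37 in HBSS and -1.17 in Torin. HSPA5 (BiP), the main ER chaperone, was at 502 and 517 in HBSS and 368 and 368 in Torin, against 1732, 1713 and 1778 untreated. It fell in both arms, and the arms differed by 0.47 ± 0.10 on the log2 scale (SE, adjusted p 7.23e-05). SDF2L1, a cofactor of ER folding, was at 75.5 and 78.5 in HBSS and 33 and 38.4 in Torin, against 378 to 420 untreated. Its difference of 1.09 fell to 0.98 without Torin replicate 2. CRELD2 and MANF were likewise far under the untreated level in both arms, with log2 fold changes of -1.82 and -1.86 in HBSS and -2.46 and -2.42 in Torin.

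XBP1, the factor spliced by IRE1, was at 165 and 172 in HBSS and 54.1 and 58.3 in Torin, against 162 to 176 untreated, so that it fell with Torin (-1.58) and had -0.01 in HBSS. DNAJC3, an inhibitor of the eIF2 kinases, showed the same layout, with 151 and 154 in HBSS and 53.7 and 64.5 in Torin against 144 to 154 untreated. HYOU1, a large ER chaperone, was at 133 and 131 in HBSS and 46.2 and 49.5 in Torin, against 172 to 204 untreated. HERPUD1, of ER-associated degradation, was at 179 and 186 in HBSS and 46.9 and 42.7 in Torin, and the untreated 83.9 to 102 lay between them.

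The ER stress response element, CCAAT and CCACG with 9 bases between them, was searched in the same promoters on both strands. It occurred in 7 of 23 promoters of the ER list and in 0.136% of those of all genes tested, and in 1 of 723 of the genes called higher. Examples are shown for members of the ER list described above or next: XBP1 (chr22:28800583-28800641, minus strand, position -52), HSPA5 (chr9:125241371-125241429, minus strand, -66), HSP90B1 (chr12:103930196-103930254, plus strand, -194) and CRELD2 (chr22:49918534-49918592, plus strand, -80), with capitals on the letters searched.
XBP1: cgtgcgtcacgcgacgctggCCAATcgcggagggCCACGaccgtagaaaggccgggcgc
HSPA5: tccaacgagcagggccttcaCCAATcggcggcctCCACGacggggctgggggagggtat
HSP90B1: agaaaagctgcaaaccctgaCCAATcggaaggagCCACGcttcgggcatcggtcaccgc
CRELD2: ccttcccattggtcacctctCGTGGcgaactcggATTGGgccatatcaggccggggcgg
CRELD2 holds the reverse complement. XBP1 was called between the arms, while HSPA5 (0.47), HSP90B1 (0.84) and CRELD2 (0.64) were under the fold limit.

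Cytosolic heat shock proteins, in contrast, had 0 of 14 members called by limma, edgeR or DESeq2, with a median of 0.00. At an unadjusted p under 0.05 (limma) 3 were higher and 3 lower, where 7123 of all 13052 genes tested passed in either direction. HSPA8, the constitutive chaperone, was at 266 and 274 in HBSS and 331 and 329 in Torin, and both groups lay under the untreated 626 to 737.

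Sterol synthesis and uptake had 12 of 24 members called higher in HBSS and 0 lower, with a median of 0.99, against -0.28 for HBSS and -0.82 for Torin relative to untreated cells. INSIG1, the sterol-regulated anchor of SREBP, was at 115 and 114 in HBSS and 37.3 and 33.2 in Torin, and the untreated libraries at 59 to 73.3 lay between. MVD, of the mevalonate pathway, was at 33.4 and 24.9 against 5.86 and 9.48 (log2 fold change 1.82 ± 0.24, SE). DHCR7, the last enzyme of cholesterol synthesis, was at 51.3 and 51.7 in HBSS, 15.9 and 16.6 in Torin and 61.6 to 71 untreated. For DHCR7 it was Torin that was called against untreated cells (-1.95).

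Among fatty acid synthesis genes 2 of 13 were called higher and 0 lower. SCD, the stearoyl-CoA desaturase, was at 946 and 923 in HBSS and 311 and 297 in Torin, against 481 to 516 untreated (log2 fold change 1.62 ± 0.08, SE), and ACACA had 1.06, which fell to 0.98 without HBSS replicate 2. FASN was under the limit at 0.68 (adjusted p 0.0108). Of glycolysis and hypoxia genes, 2 of 27 were called higher and 1 lower. VEGFA, the angiogenic factor, was at 57.8 and 61.3 in HBSS and 9.84 and 9.24 in Torin, against 14.3 to 18.2 untreated, and HK2, hexokinase 2, at 63.5 and 59.6 against 23.9 and 23.5. NDRG1, a growth arrest gene, went the other way, with 11 and 10.3 in HBSS and 28.8 and 31.5 in Torin against 4.44 to 6.53 untreated. Without HBSS replicate 1, 2 genes of the list were called lower.

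Of 41 mitosis and G2/M genes, 12 were called higher in HBSS and 0 lower, with a median of 0.66, and 31 had an adjusted p under 0.05 in that direction. AURKA, a kinase of the spindle poles, was at 505 and 549 in HBSS and 191 and 151 in Torin, against 247 to 277 untreated (log2 fold change 1.63 ± 0.10, SE, adjusted p 3.1e-18). CDK1, the kinase of mitotic entry, was at 349 and 338 against 143 and 130, with 205 to 255 untreated, and MKI67, the proliferation marker Ki-67, at 536 and 549 against 238 and 259, with 199 to 371 untreated. CENPA, the centromeric histone, was at 73.6 and 79.1 against 27.2 and 24.2. PLK1, another mitotic kinase, did not differ beyond its error (323 and 326 against 320 and 328, log2 difference 0.00, 95% interval -0.16 to 0.17).

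Of 44 E2F and replication genes, 3 (6.82%) were called higher, near the 6.95% of all genes tested, and 0 lower, with a median of 0.33. The list lay under untreated cells in both arms, with medians of -0.79 in HBSS and -1.14 in Torin. RRM2, the small subunit of ribonucleotide reductase, was at 130 and 133 in HBSS, 47.6 and 44.6 in Torin and 229 to 252 untreated (log2 fold change 1.5 ± 0.10, SE). E2F1 was at 26.2 and 31.6 in HBSS, 11.3 and 12.8 in Torin and 44.2 to 55.6 untreated. CDC6, which loads the replicative helicase, fell in both arms (33.1 and 32.2, 29.5 and 23.7, against 121 to 123 untreated), and the arms differed by 0.29 (adjusted p 0.0684). MCM2 differed by -0.04 (95% interval -0.30 to 0.22). Without Torin replicate 2, 5 members were called higher, and without HBSS replicate 1, 1 was called lower. Among 14 G1 genes 2 were called higher, CDC25A (39.8 and 32 against 16.9 and 10.9, with 72.3 to 84.3 untreated) and CDKN2D, and 1 lower, the inhibitor CDKN1C (2.3 and 2.09 against 6.8 and 6.64). CCND1, cyclin D1, was at 203 and 199 in HBSS and 339 and 380 in Torin, with a log2 difference of -0.83 (adjusted p 9.03e-10), under the fold limit.

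BCL2 family genes, which set the threshold of apoptosis, moved both ways, with 3 of 18 called higher and 4 lower. Besides PMAIP1, BBC3 (PUMA) was at 509 and 514 in HBSS and 195 and 194 in Torin, against 25.5 to 29.7 untreated. It rose in both arms (4.16 and 2.76), by 1.39 ± 0.12 more in HBSS (SE, adjusted p 7.43e-14). BCL2L11 (BIM) was at 24.4 and 24.5 against 9.38 and 11.4. BMF, a BH3-only protein, had the opposite order, with 4.83 and 3.98 in HBSS and 17.6 and 21.6 in Torin against 2.79 to 3.76 untreated (log2 fold change -1.93 ± 0.25, SE). BAX, an effector of the mitochondrial pathway, was at 2.99 and 3.98 in HBSS and 8.91 and 12.1 in Torin, against 7.81 to 13.1 untreated.

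GADD45A, a stress gene also under ATF4, was at 53.2 and 51.5 in HBSS and 11.5 and 15.2 in Torin (log2 fold change 1.91 ± 0.19, SE), and TNFRSF10B, a TRAIL receptor, at 89.5 and 86.4 against 28.1 and 35.6. XPC, of nucleotide excision repair, was at 19.3 and 20.7 in HBSS and 60.7 and 62.1 in Torin (-1.57 ± 0.14, SE).

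Among pigment and melanosome genes 5 of 28 were called higher in HBSS and 1 lower, with a median of 0.33. PPARGC1A (2.93), the coactivator described above and not a pigment gene, is in this list and counts among those called higher. DCT, dopachrome tautomerase of the melanin pathway, was at 4030 and 4047 in HBSS and 693 and 682 in Torin, against 704, 759 and 721 untreated. This 5.88-fold difference in means (log2 fold change 2.55 ± 0.09, SE, adjusted p 3.55e-27) was made in HBSS, and the Torin libraries lay just under the untreated ones. RAB27A, which moves melanosomes to the cell edge, was at 351 and 384 in HBSS and 112 and 91.3 in Torin, against 83.3 to 98.6 untreated. TYR, tyrosinase, was at 391 and 393 against 134 and 132, with 171 to 198 untreated. Other identity genes differed less, with 0.27 for PMEL, 0.40 for TYRP1, 0.54 for MLANA and 0.69 for SOX10, each with an adjusted p of at most 0.000617. S100B went the other way, at -0.49, under the fold limit. Of the 8 identity markers, 7 were higher and 1 (S100B) lower at an adjusted p under 0.05 (limma). MC1R, the melanocortin receptor, was lower in HBSS (29.7 and 28.7 against 65.2 and 78.5, with 77.4 to 98.6 untreated, log2 fold change -1.26). The lower count was 2 with edgeR, with DESeq2 and with a pseudocount of 0.1. It was 0 with the column held under both labels as Torin replicate 1. It also moved without HBSS replicate 1 or without Torin replicate 2. Of the melanocyte transcription factors, LEF1, the nuclear partner of β-catenin, was at 47.6 and 51.1 in HBSS and 145 and 142 in Torin, with 86.4 to 91.1 untreated (-1.52 ± 0.10, SE), and TFAP2C at 4.6 and 5.86 against 19.2 and 13.

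Lysosomal hydrolases, membrane proteins and the vacuolar ATPase had 4 of 43 members (9.3%) called higher, near the 6.95% of all genes tested, and 0 lower, with a median of 0.43, and 27 had an adjusted p under 0.05 in that direction. ATP6V1D, a subunit of the proton pump, was at 180 and 183 in HBSS and 88.1 and 75.4 in Torin (log2 fold change 1.14 ± 0.11, SE), and GLA, α-galactosidase, at 15.2 and 16.7 against 7.27 and 5.21. SGSH, a sulfatase, was at 67.7 and 62.6 against 16.6 and 39.3, and its call (1.31) was lost without Torin replicate 2 (0.71). SMPD1, acid sphingomyelinase, had 1.07, and 0.99 without HBSS replicate 1, where 1 member was called lower. CTSD, cathepsin D, was alike in its values (186 and 172 against 182 and 175, log2 difference 0.01, 95% interval -0.27 to 0.28). The E-box CACGTG, letters that MITF and the TFE factors can bind, was in 9 of 26 promoters of this list and 5 of 11 of the FLCN and Rag list, against 10.4% of all genes tested. It was in 3 of 10 serine and one-carbon promoters, 4 of 23 pigment, 3 of 23 ER and 2 of 13 transporter promoters. The amino acid response list had 1 of 17 and the tRNA synthetases 1 of 12. Among genes called higher it was in 10.7%, and among those called lower in 7.78%.

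In autophagy, 5 of 33 genes were called higher and 2 lower. GABARAPL1, a member of the ATG8 family that coats autophagosomes, was at 168 and 161 in HBSS and 29.3 and 35.1 in Torin, against 23.3 to 33.3 untreated (log2 fold change 2.33 ± 0.17, SE, adjusted p 4.14e-16). VMP1, of autophagosome formation, was at 210 and 198 against 90.2 and 92.2. ATG2A, a lipid transfer protein, was higher in Torin (28.3 and 28.3 against 54.6 and 63.8), and its -1.04 came to -0.93 without Torin replicate 3, where 3 members were called higher and 1 lower. Without HBSS replicate 1, 1 member was called lower. MAP1LC3B (0.73) and SQSTM1 (0.56) were under the fold limit with adjusted p of at most 5.37e-05, and ULK1 differed by -0.25 (adjusted p 0.293).

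Transcripts of the translation machinery did not part the arms at the limit used. Of 78 cytosolic ribosomal protein genes 0 were called, and their log2 differences ran from -0.34 to 0.20 with a median of -0.05. Without the fold limit, limma put 0 higher and 8 lower at an unadjusted p under 0.05, and edgeR and DESeq2 with the fold limit called 0. Of 22 translation factors with the terminal oligopyrimidine motif, which makes translation depend on mTORC1, 0 were called by limma, edgeR or DESeq2, with 4 higher and 4 lower at an unadjusted p under 0.05. EEF2 was at 2599 and 2569 in HBSS and 2769 and 2884 in Torin (log2 difference -0.13, 95% interval -0.29 to 0.03). Ribosome biogenesis had 2 of 38 called lower, and UTP14A, of small subunit processing, was at 37.3 and 37.5 in HBSS and 98.2 and 105 in Torin, against 82.7 to 92.6 untreated (-1.42 ± 0.11, SE). NOP56, a box C/D core protein, was at 263 and 270 against 494 and 476, with 796 to 835 untreated, under the fold limit at -0.86. The ribosome biogenesis count was 4 with edgeR and with DESeq2.

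Turning to the genes lower in HBSS, the 12 with the lowest fold were a mixed group, and 8 of them were called higher in Torin than in untreated cells. SNORD13, a small nucleolar RNA, was at 5.75 and 5.44 in HBSS and 49.2 and 54.3 in Torin, against 3.96 to 6.24 untreated, a 9.25-fold difference in means. Which form of this RNA the 3′ end libraries captured was not tested, so its counts are uncertain. LOC100131564, which had no match in RefSeq, was at 5.52 and 3.56 against 59.3 and 41.2. In both, the Torin arm alone left the untreated range, and the knockout clones under Torin were also above WT HBSS (27.7 to 55.3 and 28.4 to 73). SORBS2 (chromosome 4, 185585523 to 185956372), an adaptor of the actin cytoskeleton, was at 16.6 and 15.3 in HBSS, 113 and 114 in Torin and 40 to 47.4 untreated, so that both arms were called against untreated cells in opposite directions (-1.37 and 1.39). TAGLN, transgelin, was at 1.38 and 1.05 in HBSS, 18.3 and 13 in Torin and 5.59 to 6.53 untreated. TCF15, S1PR2 and TIGD5 had the reverse make-up, with HBSS called against untreated cells (-2.68, -2.26 and -2.19) and Torin not (0.01, 0.39 and 0.72). For TIGD5 the rise in Torin passed the test (adjusted p 0.00565, limma) and missed only the fold limit. TCF15 is a helix-loop-helix factor and S1PR2 a sphingosine-1-phosphate receptor. FZD2, a Wnt receptor, was at 2.99 and 1.47 against 18.8 and 19.7, and SLC25A45, a mitochondrial carrier, at 1.84 and 1.88 against 12.9 and 21.8. ANKRD20A5P, a pseudogene with close copies, ZNF577 and PSMD5-AS1 complete the group, with log2 fold changes of -2.90, -2.72 and -2.85, and the counts of ANKRD20A5P and of the antisense PSMD5-AS1 are uncertain for those reasons.

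Feedback genes of insulin, PI3K and FOXO signalling had 1 of 19 called higher and 4 lower. ERBB3, a receptor that PI3K feedback is known to induce, was at 41.2 and 44.2 in HBSS and 97 and 91.3 in Torin, against 51.8 to 61.8 untreated (log2 fold change -1.12 ± 0.12, SE). PIK3IP1, an inhibitor of PI3K, was at 0.23 and 1.05 against 3.52 and 3.56, and KLF2, a FOXO target, at 1.84 and 0.628 against 5.63 and 6.64. FOXO1 was at 12.2 and 11.1 against 24.4 and 24.4, and its -1.01 came to -0.94 without HBSS replicate 2. GAB1, a docking protein, was higher in HBSS (15.4 and 20.7 against 7.97 and 4.5), and without either Torin replicate 2 genes were called higher. IRS2, the insulin receptor substrate, was high in both arms, with 993 and 1030 in HBSS and 958 and 999 in Torin against 414 to 453 untreated, and the arms differed by 0.05 (95% interval -0.12 to 0.22).

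In the MYC network and among MondoA targets 2 of 13 were called higher and 2 lower. MYC was at 17.9 and 19 in HBSS and 38.2 and 43.6 in Torin, against 11.7 to 18 untreated (log2 fold change -1.10 ± 0.28, SE, adjusted p 0.00185). Its antagonist MXD1 was at 14.7 and 10 in HBSS and 2.81 and 3.56 in Torin. MXD3 (1.37) was not called with a pseudocount of 0.1 (adjusted p 0.19). ARRDC3, an arrestin, was lower in HBSS (0 and 2.51 against 7.5 and 6.16), while its relative TXNIP, which answers to glucose through MondoA, was alike in its values (128 and 134 against 119 and 121, with 41.8 to 45.5 untreated, log2 difference 0.13, 95% interval -0.08 to 0.33).

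The MAPK output genes had 0 of 20 called higher and 2 (10%) lower, near the 9.64% of all genes tested, with 10 at an adjusted p under 0.05 in the lower direction. DUSP6, the ERK phosphatase, was at 163 and 172 in HBSS and 323 and 318 in Torin, with 220 to 243 untreated, and its -0.93 (adjusted p 9.31e-13) was under the fold limit. FOSL1, an AP-1 factor, was at 1.38 and 0 against 4.92 and 4.98 (-1.95 ± 0.33, SE). EGR1 was at 5.06 and 2.51 against 12 and 9.24, with -1.32, and -0.93 without HBSS replicate 2. Interferon-stimulated genes had 1 of 26 called higher and 5 lower. STAT2, part of the interferon-activated factor, was at 26.9 and 25.1 in HBSS and 97 and 98.8 in Torin, against 31.7 to 32.5 untreated (-1.87 ± 0.13, SE, adjusted p 1.89e-16). MX1 (-1.19, and -0.72 without Torin replicate 2) and IFITM2 (-1.10, -0.97 without HBSS replicate 2 and -0.77 without Torin replicate 2) were lower with less support, and IFI44L (-1.14) was at the floor in HBSS and fell to -0.94 without HBSS replicate 1.

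NRF2 and antioxidant genes had 3 of 19 called higher and 1 lower. OSGIN1 was at 89.3 and 86.2 in HBSS and 10.3 and 17.1 in Torin (log2 fold change 2.63 ± 0.23, SE), and TXNRD1, thioredoxin reductase, at 191 and 203 against 60.2 and 58.3. NQO1, a standard NRF2 target, was at 367 and 381 against 397 and 406 (log2 difference -0.10, 95% interval -0.29 to 0.09). HMOX1, heme oxygenase, was lower in HBSS at -1.12, and -0.88 without HBSS replicate 2. Of the lists left, respiratory chain subunits had 1 of 48 called higher, with 32 at an adjusted p under 0.05 in that direction. The 1 called was UQCRFS1 (1.04, and 0.95 without HBSS replicate 2 or Torin replicate 3). Histone cluster transcripts had 2 of 9 called higher, HIST2H2BE and HIST1H2BK, which fell to 0.86 and 0.76 without Torin replicate 2. Purine and pyrimidine enzymes had 1 of 22 called higher (RRM2), a count that moved without Torin replicate 3. At an adjusted p under 0.05 (limma) 8 of these enzymes were higher and 7 lower. Proteasome subunits had 0 of 33 called (limma, edgeR and DESeq2), with 12 higher and 7 lower at an unadjusted p under 0.05 (limma).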

How the data were processed

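RNA 3′ ends were sequenced with QuantSeq Forward libraries in 27 samples. Per the study's methods and the submitters' processing notes, reads were trimmed with trim_galore (cutadapt 2.10), checked with FastQC 0.11.9, mapped to hg38 with STAR 2.7.8a and normalised with edgeR. The counter, the scaling and the filter on genes are not given in the sources used here. The deposited values are a normalised signal per gene symbol, CPM over a library scaling factor, and 100% of them were whole multiples of the value of 1 read (tolerance 0.01), so that reads could be recovered.

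The filter kept 13052 genes that reached a value of 1 in 3 or more libraries, and 471 were left out. This filter can remove genes present only in an arm of 2 libraries. Values were taken as log2(value + 1), which draws low genes towards 0, and a model with a mean for each of 9 groups was fitted to 25 libraries with limma 3.58.1 in R 4.3.3 (trend and robust, 2-sided p, Benjamini-Hochberg over all genes tested). Genes were called at an adjusted p under 0.05 with a log2 fold change of 1 or more in either direction. Alternatives used edgeR 4.0.16 and DESeq2 1.42.0 on recovered reads, other filters, pseudocounts, scaling and libraries. Replicate numbers were not used to pair the samples in the main fit.

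The members and gene lists were chosen with earlier results of these data known. Named genes were TFEB, TFE3 and MITF, the 12 highest and 12 lowest called genes with a mean of at least 5 and no overlap, and per list up to 4 called members in each direction plus preset key members. SARS, CARS, TARS, WARS and NARS are outside that rule and were named after their values were seen. Results on some genes and on 1 gene list are not reported here.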

Additional observations from a re-analysis of the deposited data

Results flagged for a closer look

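The column held under both labels was used in no group. It had a signal above every untreated library in 12 of the 12 highest and 2 of the 12 lowest genes of the comparison. Its normalised read counts were 238 for SESN2, 226 for ASNS, 122 for CHAC1, 19.7 for LURAP1L-AS1, 68.9 for CEBPG and 25.4 for PMAIP1. They were 58.5 for AKNA, 480 for MTHFD2, 27.3 for NAT8, 7.95 for CIART, 23.5 for PRDM7 and 214 for PPARGC1A. Among the lowest genes they were 10.8 for SNORD13 and 4.73 for SLC25A45. Over all 2165 called genes the column was nearer to the HBSS mean in 2040 (94.2%) and to the Torin mean in 125. No group was given to it from these values.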

How the results depend on the processing

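The 2165 called genes (907 higher, 1258 lower in HBSS) became 664 (253 higher, 411 lower) when the column held under both labels was counted as WT Torin replicate 1, and 661 of these were among the 2165. Other settings gave 1724 (minimum value 5) to 2586 (pseudocount 0.1), with 2461 for edgeR and 2382 for DESeq2, all within 1.5 times. Leaving out each of the 4 libraries gave 2175 to 2226 called genes, 918 to 957 higher and 1247 to 1284 lower. The lone library left in an arm is then assumed to vary like the other groups. Over 92 same-numbered pairs of libraries the median correlation of deviations was 0.013 (-0.29 to 0.28). Over 185 other pairs it was -0.005 (-0.26 to 0.37). The compared groups share 1 number (correlation 0.021), and with n = 2 in each this cannot show whether they are paired. The replicate block gave 2173 called genes, moving FNIP1 to 0.90 and FOXO1 to -0.99. Of 196 named genes (186 with a minimum value of 5), 0 changed direction between the arms where they were called in either fit. Changes of sign among genes not called were not counted. With the column as Torin replicate 1, 69 lost their call, and 2 did with a pseudocount of 0.1. Leaving out 1 library also moved some named genes across the limit, as given above. Sign changes of Torin minus untreated are listed only for named genes with an adjusted p under 0.05 in either fit (limma). Genes without such a p may have turned as well. Among the listed genes, counting the column as Torin replicate 1 turned the sign for SESN2 (0.27), LURAP1L-AS1 (0.17), TIGD5 (-0.54), FZD2 (-0.031), TRIB3 (0.15), GOT1 (0.23), PSPH (0.087), PHGDH (0.13), SLC7A1 (0.24), SLC7A11 (0.091), SLC7A5 (0.057), VEGFA (0.051), GADD45A (0.14), TYR (0.079) and OSGIN1 (0.23). That setting mixes this column into an arm of 2 libraries. Genes near 3 reads are limited by depth.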

Other observations

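The filter left out some genes seen mainly in HBSS. TGFB2, a growth factor of the TGFβ family, had 10.4 and 10.5 in HBSS and 0.234 and 0.237 in Torin (log2 fold change 3.21 with no filter), and was named after its values were seen. With no filter, 16 of the 471 genes left out were called.

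Gene classes were also counted after the values were seen. Zinc finger genes named ZNF had 12 of 410 members (2.93%, against 6.95% of all genes tested) called higher in HBSS and 59 (14.4%, against 9.64%) lower, with a median log2 difference of -0.26, which was 0.00 for HBSS and 0.29 for Torin against untreated cells. Transcripts annotated as not protein coding made up 12.1% of the genes called lower, 6.39% of those called higher and 7.35% of the genes tested, and antisense transcripts 4.61%, 1.32% and 2.31%. Of the genes called lower, 47% had a mean under 5, against 25.2% of the genes tested. Low level moved with these classes, and its part in the counts was not tested.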
